A study of Mus musculus with 9 samples.

Results

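The genes described here are 8 genes of fat and sterol metabolism in mouse kidney: Ppara, Plin2, Scd1, Fasn, Acly, Acaca, Idi1 and Hmgcs1. They were chosen by name, with earlier results of these data known. All 8 were found by gene symbol among the 14052 genes of the count table. All passed the low count filter that left 7020 genes for testing. RNA was sequenced from renal cortex of mice about 1 year old on normal diet. The tumour group holds 5 tumour areas (L4, R2, R3, R4 and R5) of VhlF/FPbrm1F/FKsp-Cre mice, in which floxed alleles of Vhl and Pbrm1 are removed by a Cre driven from the promoter of Ksp-cadherin (Cdh16), a gene of kidney tubule epithelium. These mice have a mixed background of C57BL/6, BALB/c and 129. The normal group holds 4 cortex areas (L1, L2, R1 and R2) of wild-type C57BL/6 mice. Strain and genotype cannot be told apart, the letters are not explained, and the areas of each group share 1 number in their descriptions, so p-values may measure only the spread between areas of 1 animal.

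PPARA is a nuclear receptor that binds fatty acids, pairs with RXR and turns on genes of fatty acid oxidation, the main fuel use of the proximal tubule. Fatty acids are made from citrate by ACLY, ACACA and FASN in turn, and SCD1 then adds a double bond. HMGCS1 and IDI1 are enzymes of the mevalonate pathway to cholesterol. The SREBP transcription factors switch on the genes of both synthesis routes, SREBP1 mainly those of fatty acids and SREBP2 mainly those of sterols. PLIN2 coats lipid droplets, which give clear cell renal carcinoma, the human tumour in which VHL is most often lost, its pale cells.

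Counted reads per library ran from 5246708 to 6645050 in tumour areas and from 5143527 to 8250261 in normal areas. In 28.4% of the listed genes all 9 libraries had no count, including Lss and Dhcr7, enzymes of cholesterol synthesis, so a gene listed at 0 is not shown to be silent. Levels are CPM values, which are counts scaled to a common library size, here corrected by the TMM method. The ± after a mean gives the SD over areas (n = 5 tumour and 4 normal) and the ± after a log2 ratio of tumour to normal gives its standard error. Adjusted p-values are from edgeR's quasi-likelihood test with Benjamini-Hochberg adjustment over all genes tested. An adjusted p under 0.05 is a call. Over all tested genes 74.6% were called, 39.3% as higher and 35.3% as lower in tumour, with a median log2 fold change of 0.06. With library size alone as the scaling that median was 0.35, with 3735 genes called higher and 1689 lower, so small decreases depend on the scaling. Of the genes floxed in the tumour mice, Vhl averaged 60.0 ± 12.0 CPM in tumour areas and 104 ± 4.69 CPM in normal areas (-0.79 ± 0.13, adjusted p = 0.000248), and Pbrm1 averaged 136 ± 21.5 CPM in tumour areas and 155 ± 10.1 CPM in normal areas (-0.19 ± 0.11, adjusted p = 0.142). Counts over a whole gene do not show whether a deleted exon is gone.

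Tumour areas L4 and R5 stood apart from the others by transcripts of fat cells. Of 20 fat cell markers 12 were in the table, none of them without counts, and their summed level was 2390.2 CPM in L4, 716 CPM in R5 and 143 to 203 CPM in R2, R3 and R4, against 128 to 201 CPM in normal areas. Cfd (adipsin), a protease secreted by fat cells, stood at 455.6 CPM in L4, at 95.9 CPM in R5 and between 1.17 and 13.7 CPM in R2, R3 and R4. Ucp1, the uncoupling protein of brown fat, had 245 counts in L4 and 263 in R5, and at most 3 in any other area. Of the 7 fat cell markers tested, 4 were called higher and none lower, and without L4 and R5 the split was 2 and 2. Urothelium markers had the same order, with 1408 CPM in L4, 320.5 CPM in R5 and between 94.4 and 142 CPM in R2, R3 and R4, against 55.6 to 62.6 CPM in normal areas. Fat cells make fatty acids themselves, so values without these areas are given for the 8 genes and for the other results that they moved most.

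Both enzymes that end fatty acid synthesis rose in tumour areas, Scd1 by 3.97-fold and Fasn by 2.58-fold, and the other 6 genes fell. Ppara fell most, by 6.75-fold, followed by Idi1 (3.44-fold), Acly (2.28-fold), Hmgcs1 (1.88-fold), Acaca (1.82-fold) and Plin2 (1.59-fold). So 8 of 8 passed the test, against 74.6% of all genes, 2 of 8 as higher (39.3% of all genes) and 6 of 8 as lower (35.3%). The groups did not overlap in 7 of 8, against 67.8% of all genes, and the exception was Acaca. The median log2 fold change of the 8 was -0.89. Because the 8 were chosen with earlier results of these data known, these counts are a description only. Without tumour areas L4 and R5 all 8 kept their direction and passed, against 75.3% of all genes (38.9% as higher and 36.4% as lower).

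**Figure D1:**
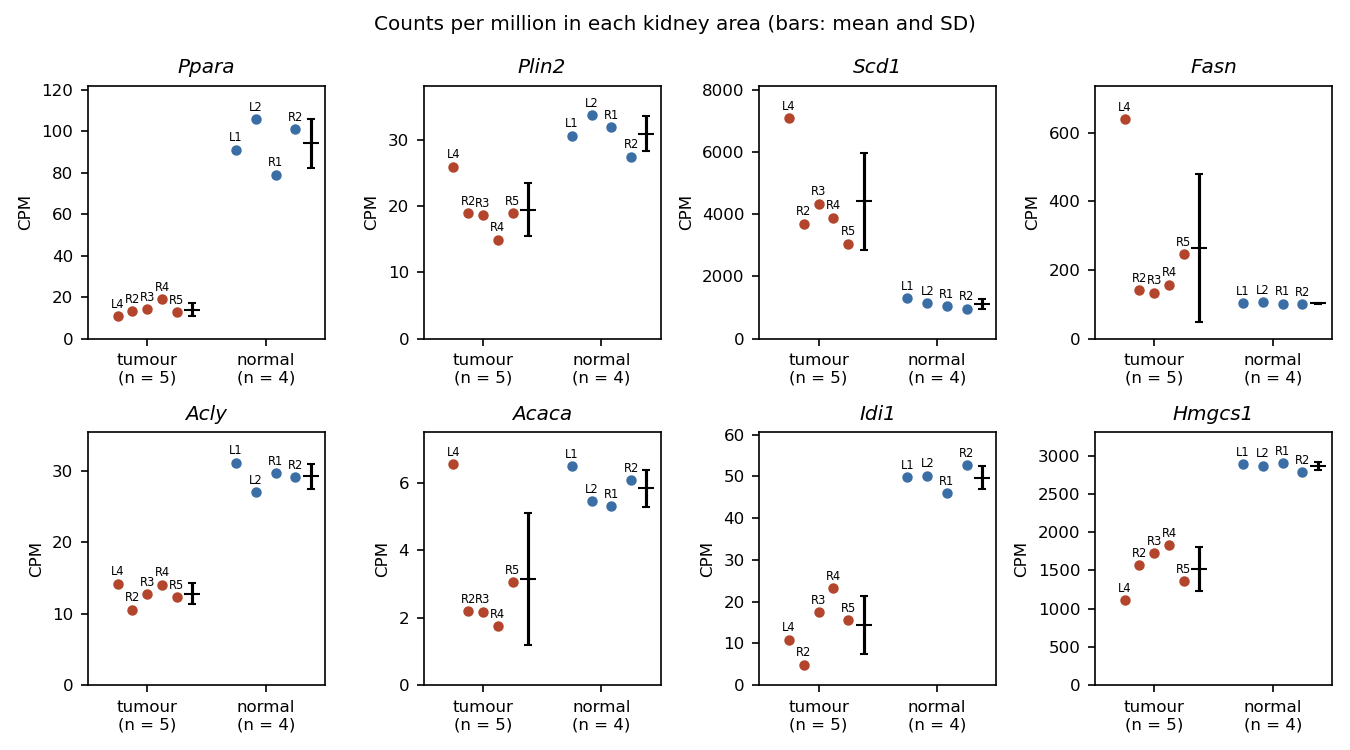
Level of each of the 8 genes (y axis, CPM, starting at 0) in the 5 tumour areas (left) and 4 normal areas (right), with 1 point per area and the mean and SD beside the points. Scd1 and Fasn lie higher in every tumour area, with L4 highest, and only Acaca has a tumour area, again L4, at the level of the normal areas.

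**Figure D2:**
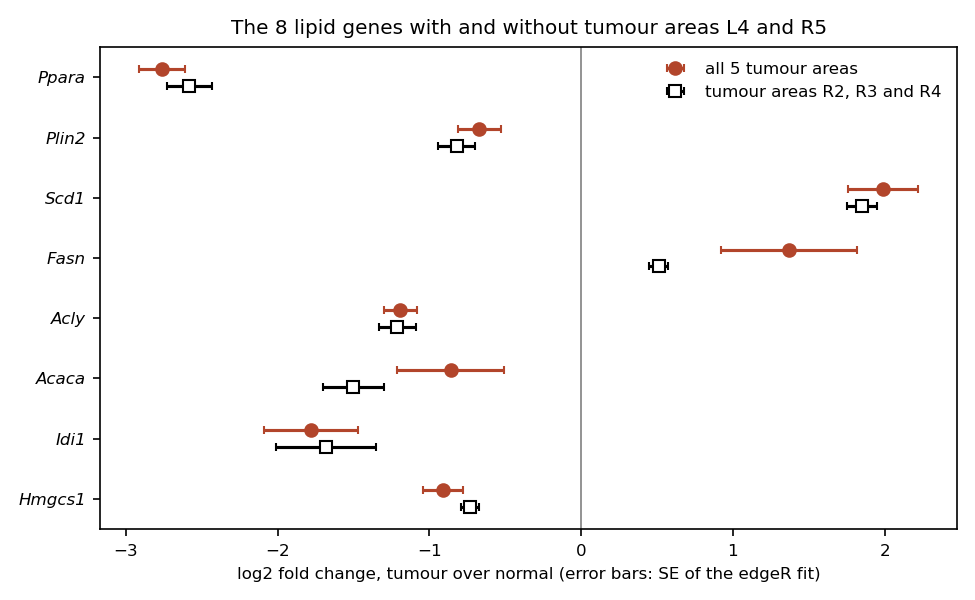
Log2 fold change of tumour over normal (x axis, error bars are standard errors of the edgeR fit) for the 8 genes, from all 5 tumour areas (filled circles) and from tumour areas R2, R3 and R4 (open squares). With L4 and R5 left out Fasn stands at 0.51 (1.37 with all areas) and Acaca at -1.50 (-0.86 with all areas), and no gene changes sign.

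Ppara (chromosome 15, ENSMUSG00000022383) was the regulator among the 8. It stood at 10.7 CPM in tumour area L4, 13.1 in R2, 14.2 in R3, 19.0 in R4 and 12.6 in R5, against 91.1 CPM in normal area L1, 105.6 in L2, 78.9 in R1 and 100.8 in R2. Every tumour area lay far below every normal area, and the highest tumour value, in R4, was under the lowest normal value, in R1, by more than the whole range of either group. This gave a log2 fold change of -2.76 ± 0.15 (adjusted p = 1.93e-07), and -2.58 ± 0.15 in R2, R3 and R4 alone. In bulk tissue, fewer cells of a type and less RNA per cell cannot be told apart. Of 15 tested proximal tubule markers, from 20 listed and 16 in the table, 13 also fell and none rose, and their summed level was 28172 to 52097 CPM in tumour areas and 68767 to 70752 CPM in normal areas. Of 10 tested markers of thick ascending limb, distal tubule and collecting duct, from 15 listed and 12 in the table, 9 fell and none rose, with summed levels of 1547 to 6944 CPM in tumour areas and 10903 to 11112 CPM in normal areas. Markers of all these tubule segments were thus lower, and the part of tubule cells in the fall of Ppara was not tested.

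The partners of PPARA mostly fell too. Of 14 tested receptors and partners, from 22 listed, 11 fell, Ppara included, and 3 rose, and the median log2 fold change was -0.79. Among all genes 35.3% fell and 39.3% rose, with a median of 0.06. With library size alone 9 of the 14 fell and 3 rose, with a median of -0.50. Rxra, an RXR partner of PPARA, averaged 326 ± 23.1 CPM in tumour areas and 475 ± 14.5 CPM in normal areas (-0.54 ± 0.06, adjusted p = 1.77e-05). Ppargc1a, a coactivator that raises mitochondrial gene expression, averaged 146 ± 24.5 CPM in tumour areas and 251 ± 10.9 CPM in normal areas (-0.78 ± 0.11). The steroid receptor coactivators Ncoa2 and Ncoa1 fell, with log2 fold changes of -2.92 ± 0.19 and -1.69 ± 0.13. Ncor1, a corepressor of nuclear receptors in the same list, fell as well (-1.25 ± 0.08). Fabp3, a carrier of fatty acids inside cells, fell by 1.89 ± 0.25 on the same scale. The 3 that rose were Pparg, the PPAR of fat cells and macrophages, Ppargc1b, a relative of Ppargc1a (0.90 ± 0.19), and Rxrb, another RXR (0.47 ± 0.09). Pparg stood at 26.9 CPM in tumour area L4, 6.71 in R2, 4.18 in R3, 4.50 in R4 and 9.59 in R5, against 1.51 to 2.66 CPM in normal areas. It was highest in L4, the area richest in fat cell markers, but all 5 tumour areas lay above all normal areas, and its log2 fold change was 2.28 ± 0.62 with all areas and 1.25 in R2, R3 and R4 alone (adjusted p = 0.00221). Med1, a mediator subunit that nuclear receptors bind, was listed at 0 in every area.

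Known PPARA targets mostly fell. Of 63 listed genes 45 were in the table and 29 were tested. Of these, 22 fell, 2 rose and 5 were not called, with a median log2 fold change of -0.78. Over all genes 35.3% fell and 39.3% rose, with a median of 0.06. With library size alone 15 of the 29 targets fell and 5 rose. The 5 not called were genes of fatty acid oxidation: Acadm (0.03), Acadl (-0.17), Hsd17b4 (-0.03), Eci1 (0.14) and Etfa (0.04). Acaa2 and Hadh, also of fatty acid oxidation, fell, with log2 fold changes of -1.43 ± 0.22 and -0.58 ± 0.09. Creb3l3, a transcription factor of lipid metabolism that works with PPARA, averaged 1.05 ± 0.467 CPM in tumour areas and 11.1 ± 2.85 CPM in normal areas (-3.40 ± 0.31, adjusted p = 4.54e-06). Cyp4a12a, which hydroxylates fatty acids at their end, fell by 2.97 ± 0.42 on the log2 scale. Cpt1a, which lets long fatty acids into mitochondria, averaged 970.4 ± 175 CPM in tumour areas and 2389 ± 44.6 CPM in normal areas (-1.30 ± 0.12, adjusted p = 5.47e-06). Each of these was lower in every tumour area than in any normal area. The 2 that rose were Ucp2, a mitochondrial carrier that is also abundant in immune cells (1.85 ± 0.12), and Abcd2, a peroxisomal fatty acid transporter. The level of Abcd2 was 74.1 CPM in L4 and between 4.90 and 22.4 CPM elsewhere in tumour, and it was not called without L4 and R5 (0.17, adjusted p = 0.619). Markers of macrophages and dendritic cells, which use Ucp2, rose in 12 of 13 tested genes, from 19 listed and 14 in the table, with a summed level of 985 to 2345 CPM in tumour areas and 122 to 154 CPM in normal areas. Trem2 was the marker at 0 throughout. The part of these cells in the level of Ucp2 was not tested. Proximal tubule markers fell, with a median log2 fold change of -1.49. The part of tubule cells in the lower levels of the PPARA targets was not tested either.

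Plin2 (chromosome 4, ENSMUSG00000028494), the droplet coat protein of most cells other than fat cells and itself a target of PPARA, stood at 26.0 CPM in tumour area L4, 19.0 in R2, 18.7 in R3, 14.96 in R4 and 19.0 in R5, against 30.7 CPM in normal area L1, 33.8 in L2, 32.1 in R1 and 27.5 in R2. L4 was the highest tumour area and came close to R2, the lowest normal area, but the groups did not overlap. The log2 fold change was -0.67 ± 0.14 (adjusted p = 0.00171), -0.82 ± 0.12 in R2, R3 and R4 alone, and -0.37 without a call when libraries were scaled by size alone (adjusted p = 0.0684). These levels rest on 103 to 187 counts in tumour areas and 136 to 248 counts in normal areas.

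A related droplet coat protein went the other way. Plin3, which sits on newly formed droplets, averaged 275 ± 24.9 CPM in tumour areas and 128 ± 10.7 CPM in normal areas (1.10 ± 0.08, adjusted p = 9.26e-07), and was higher in all 5 tumour areas. Within each library, which needs no scaling, the count of Plin2 was 0.055 to 0.102 times that of Plin3 in tumour areas and 0.196 to 0.268 times in normal areas. Plin1 and Plin4, the coats of fat cell droplets, were 139.3 and 145.9 CPM in L4, 30.7 and 34.9 CPM in R5, at most 3.195 and 11.2 CPM in R2, R3 and R4, and at most 6.00 and 23.3 CPM in normal areas. Neither was called (log2 fold changes of 3.14, 95% interval 0.01 to 6.26, and 1.30, 95% interval -0.77 to 3.36). Without L4 and R5 their log2 fold changes turned to -1.25 and -1.14, and Plin4 was then called as lower (adjusted p = 0.0213). Plin5, the coat protein of oxidative tissues, was listed at 0.

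Of 25 tested genes of droplets and triglycerides, from 52 listed and 38 in the table, 6 rose and 13 fell, with a median of -0.45. The shares over all genes were 39.3% higher and 35.3% lower, and the median was 0.06. With library size alone 9 rose and 10 fell, and without L4 and R5 5 rose and 16 fell of 24 tested, with a median of -0.83. Lipe, the hormone-sensitive lipase abundant in fat cells and named after its values were seen, was not called with all areas (0.29, adjusted p = 0.644) and was called lower without L4 and R5 (-0.96, adjusted p = 1.56e-05). Soat1, which makes cholesterol esters for storage in droplets, rose to 211 ± 43.8 CPM in tumour areas, against 50.9 ± 2.33 CPM in normal areas (2.05 ± 0.14, adjusted p = 7.35e-07), and was lowest in L4 among tumour areas, at 162 CPM. Pnpla3, a lipase of droplets under SREBP1 control, rose by 2.56 ± 0.73, and by 1.28 without L4 and R5. Agpat4, an acyltransferase of phospholipid synthesis, averaged 6.995 ± 1.83 CPM in tumour areas and 2.35 ± 1.04 CPM in normal areas (adjusted p = 0.000686). Among genes that fell, Gpam, the first step of triglyceride synthesis, was lower by 1.82 ± 0.15 on the log2 scale, Apob and Mttp, which export fat as lipoprotein, by 2.48 ± 0.19 and 1.66 ± 0.25, and Dgat2, the last step of triglyceride synthesis, by 0.59 ± 0.16. Dgat2 was not called with library size alone (-0.29). Dgat1 was listed at 0, and Pnpla2, the main triglyceride lipase, had too few counts to be tested.

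**Figure D3:**
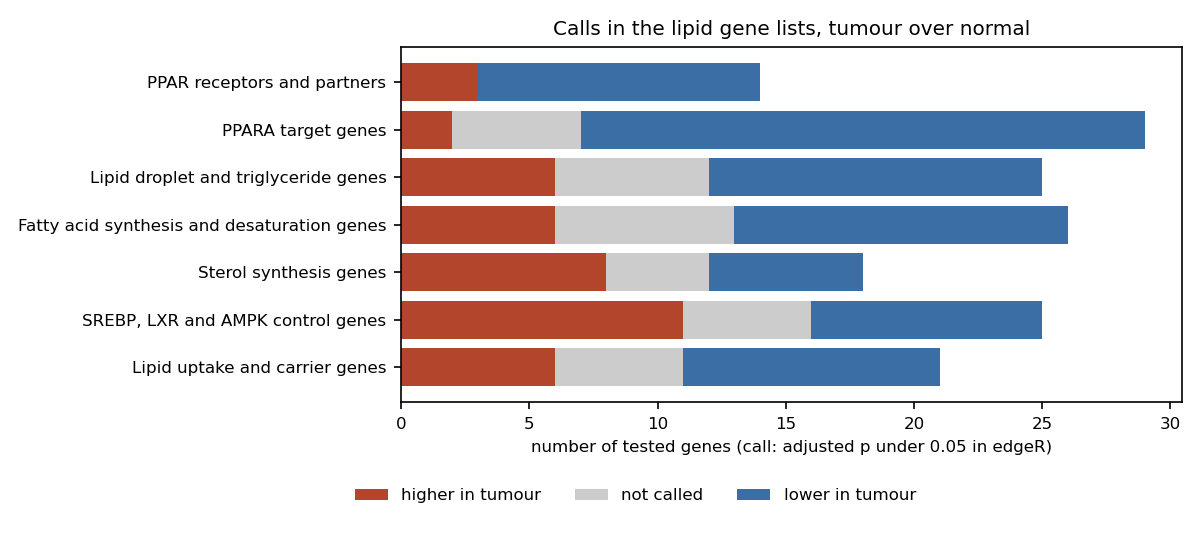
Number of tested genes (x axis) in each of 7 lipid gene lists that were called higher in tumour (left), not called (middle) or called lower (right). Lower calls outnumber higher ones most in the PPARA target list, 22 against 2, and higher calls outnumber lower ones in the sterol synthesis list, 8 against 6, and the list of SREBP, LXR and AMPK genes, 11 against 9. The last 2 lists lie near the shares over all tested genes, 39.3% higher and 35.3% lower.

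The steps of fatty acid synthesis did not move together. Acly (chromosome 11, ENSMUSG00000020917), which makes acetyl-CoA from citrate, stood at 14.2 CPM in tumour area L4, 10.6 in R2, 12.7 in R3, 14.1 in R4 and 12.3 in R5, against 31.2 CPM in normal area L1, 27.0 in L2, 29.7 in R1 and 29.2 in R2. All tumour areas lay at about the same low level, and L4 and R5 did not stand out. On the log2 scale the difference was -1.19 ± 0.11 (adjusted p = 3.28e-06).

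Acaca (chromosome 11, ENSMUSG00000020532), the carboxylase that sets the rate of the route, was counted very thinly, with 47 counts in L4 and 12 to 20 in the other tumour areas, and 30 to 40 in normal areas. That gave 6.54 CPM in tumour area L4, 2.18 in R2, 2.18 in R3, 1.74 in R4 and 3.04 in R5, against 6.49 CPM in normal area L1, 5.46 in L2, 5.32 in R1 and 6.07 in R2. L4 reached the normal level, and the other 4 tumour areas lay below all normal areas. The log2 fold change was -0.86 ± 0.35 and barely passed (adjusted p = 0.0445), while it was -1.32 without L4 (adjusted p = 0.000137) and -1.50 ± 0.20 without L4 and R5 (adjusted p = 8.29e-05). Leaving out any area other than L4 ended the call, with adjusted p-values of 0.0655 to 0.0915, as did library size alone (-0.56, adjusted p = 0.197). In the later annotation used for lengths, 30.4% of the 50-base stretches of Acaca transcripts also occur in other genes, so its counts are uncertain by what the counting did with shared reads. Acacb, its mitochondrial relative, was listed at 0.

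Fasn (chromosome 11, ENSMUSG00000025153), which builds palmitate, stood at 639.8 CPM in tumour area L4, 141.6 in R2, 133.6 in R3, 157 in R4 and 245.6 in R5, against 102 CPM in normal area L1, 106 in L2, 101.3 in R1 and 100.2 in R2. All tumour areas lay above the narrow normal range, and the 2 areas with fat cell markers held the highest values. The log2 fold change was 1.37 ± 0.45 with all areas (adjusted p = 0.0186), 0.74 without L4 (adjusted p = 0.0022) and 0.51 ± 0.06 without L4 and R5 (adjusted p = 4.12e-05). In R2, R3 and R4 the mean was 144 ± 11.9 CPM, with each area above each of the normal areas. The part of fat cells in the level of Fasn was not tested.

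Scd1 (chromosome 19, ENSMUSG00000037071), the desaturase that makes oleate, stood at 7085 CPM in tumour area L4, 3702 in R2, 4347 in R3, 3889 in R4 and 3059 in R5, against 1302 CPM in normal area L1, 1143 in L2, 1049 in R1 and 956 in R2. Every tumour area held more than 2 times the highest normal value. Here R5, which carried fat cell markers, was the lowest tumour area, and L4 the highest. On the log2 scale it rose by 1.99 ± 0.23 (adjusted p = 2.3e-05) and 1.85 ± 0.10 in R2, R3 and R4 alone (adjusted p = 3.09e-07). Scd1 took up 0.825% of all counted reads in L4, 0.338% to 0.456% in the other tumour areas and 0.0856% to 0.117% in normal areas.

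Scd2, a related desaturase, did not show this difference. It averaged 747 ± 48.8 CPM in tumour areas and 759 ± 23.3 CPM in normal areas, and its log2 fold change of -0.02 had a 95% interval of -0.16 to 0.11 (adjusted p = 0.747). Its sign depended on the scaling and on single areas, and with library size alone it read 0.27 higher. Counts of Scd1 were 4.43 to 8.78 times those of Scd2 in tumour areas and 1.27 to 1.79 times in normal areas, a ratio that does not depend on scaling and in which the groups do not overlap. Of the 50-base stretches of Scd1 transcripts, 4.56% also occur in other genes, mostly Scd2, Scd3 and Scd4.

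**Figure D4:**
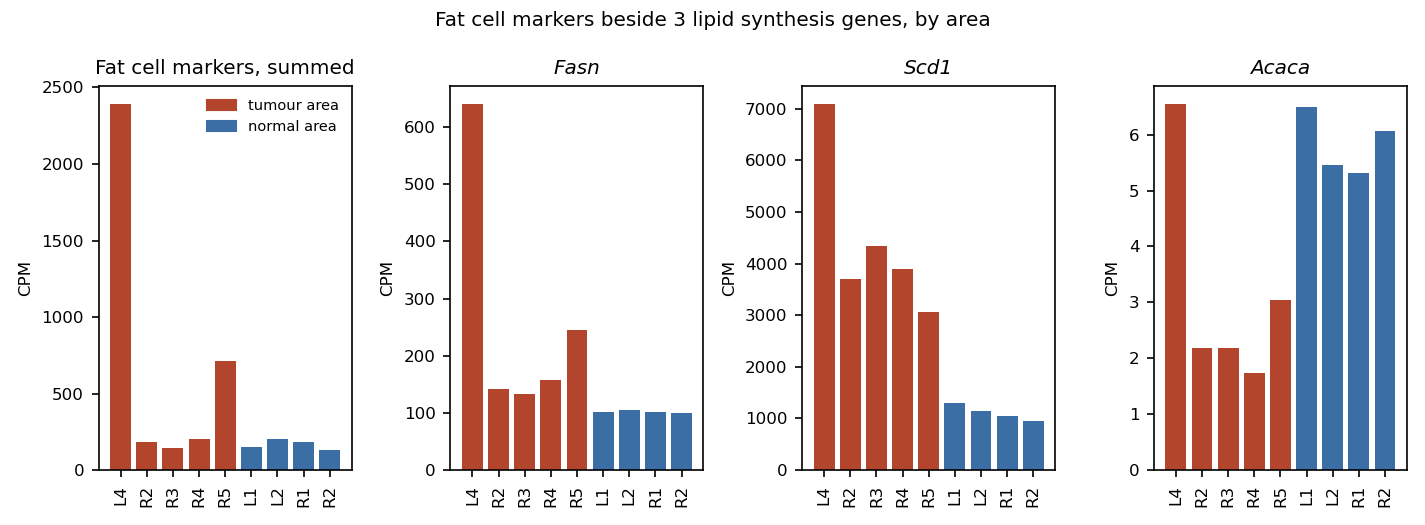
Summed level of the fat cell markers and levels of Fasn, Scd1 and Acaca (y axes, CPM, starting at 0) in each of the 5 tumour areas (left) and 4 normal areas (right). Fasn and the fat cell markers are both highest in L4 and second in R5, Scd1 is lowest among tumour areas in R5, and Acaca reaches 6.54 CPM in L4.

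Of 26 tested genes of fatty acid synthesis and desaturation, from 45 listed and 38 in the table, 6 rose and 13 fell, with a median of -0.18. The shares over all genes were 39.3% higher and 35.3% lower, and the median was 0.06. With library size alone 10 rose and 7 fell. Beside Scd1 and Fasn, the increases were of Slc25a1, which carries citrate out of mitochondria (176 ± 22.8 CPM in tumour areas and 116 ± 7.13 CPM in normal areas, 0.61 ± 0.09), of Acsl5, which activates fatty acids (0.54 ± 0.09), of G6pdx, which supplies NADPH (0.45 ± 0.12), and of Cyb5r3, which passes electrons to desaturases (0.42 ± 0.05, named after its value was seen). Acss1, which makes acetyl-CoA from acetate in mitochondria, averaged 218 ± 72.0 CPM in tumour areas and 940.5 ± 63.6 CPM in normal areas (-2.11 ± 0.23, adjusted p = 1.59e-05). Fads6, a desaturase-like gene, fell by 1.89 ± 0.28 on the log2 scale, and Hacd2, of fatty acid elongation, by 1.15 ± 0.08. Elovl6, which lengthens palmitate, was listed at 0.

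Hmgcs1 and Idi1 both fell, while several other genes of the sterol route rose. Hmgcs1 (chromosome 13, ENSMUSG00000093930), which makes HMG-CoA in the cytosol, stood at 1109 CPM in tumour area L4, 1570.3 in R2, 1720.2 in R3, 1833 in R4 and 1354 in R5, against 2889 CPM in normal area L1, 2869 in L2, 2897 in R1 and 2783 in R2. L4 and R5 were the lowest tumour areas, and no tumour area came near the narrow normal range. The log2 fold change was -0.91 ± 0.13 (adjusted p = 0.00011), and -0.73 ± 0.06 in R2, R3 and R4 alone. In the later annotation, 12.1% of the exon bases of Hmgcs1 are overlapped by an antisense gene, and reads of the 2 cannot be told apart in libraries that do not mark strand.

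Idi1 (chromosome 13, ENSMUSG00000058258), which turns isopentenyl diphosphate into its reactive isomer, stood at 10.9 CPM in tumour area L4, 4.87 in R2, 17.4 in R3, 23.2 in R4 and 15.5 in R5, against 49.8 CPM in normal area L1, 50.2 in L2, 46.0 in R1 and 52.6 in R2. Among tumour areas R4 was highest and R2 lowest, and the groups were well apart, with a log2 fold change of -1.78 ± 0.31 (adjusted p = 0.000429). Tumour area R2 held 29 counts of Idi1, and normal areas held 230 to 368. An antisense gene overlaps 9.22% of its exon bases. Of the 50-base stretches of Idi1 transcripts 17.7% also occur in predicted genes, so its counts are uncertain by what the counting did with shared reads.

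Of 18 tested sterol genes, from 31 listed and 24 in the table, 8 rose and 6 fell, with Hmgcs1 and Idi1 among those that fell. The shares over all genes were near these, at 39.3% higher and 35.3% lower. The list had a median of 0.20, against 0.06 over all genes. With library size alone 12 rose and 4 fell. Sqle, which adds oxygen to squalene, averaged 203 ± 26.7 CPM in tumour areas and 80.3 ± 9.15 CPM in normal areas (1.34 ± 0.11, adjusted p = 2.14e-06). Fdps, which acts right after Idi1 in the route, averaged 23.7 ± 5.93 CPM in tumour areas and 9.45 ± 0.249 CPM in normal areas (1.33 ± 0.18). Both were higher in all 5 tumour areas than in any normal area. Hsd17b7, a reductase of the later steps, fell by 1.40 ± 0.09 on the log2 scale, and Stard4, a sterol carrier, by 0.47 ± 0.13, the last without a call under library size alone.

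**Figure D5:**
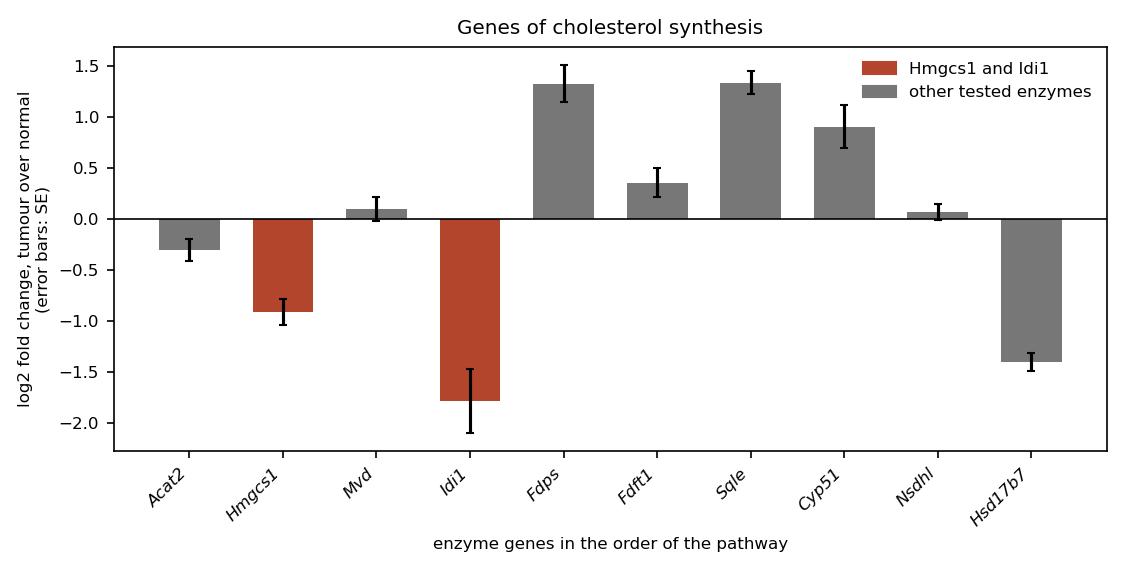
Log2 fold change of tumour over normal (y axis, error bars are standard errors) for 10 tested genes of cholesterol synthesis in pathway order (x axis). Hmgcs1 and Idi1 fall (-0.91 and -1.78), Fdps and Sqle rise (1.33 and 1.34), and Hsd17b7 falls again (-1.40).

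The promoters of Hmgcs1, Idi1 and Fasn are shown because these genes of SREBP routes moved in opposite directions. Each is the 250 bases before the annotated start, 5′ to 3′ on the gene's strand, from the RefSeq table of build GRCm38.p6, which is later than the mm9 build of the counts. Capitals mark matches to the CCAAT box bound by NF-Y (CCAAT, or ATTGG on the other strand) and to a sterol regulatory element bound by SREBP (TCACNCCAC, either strand).
Hmgcs1 (chr13:119690101-119690350, plus strand): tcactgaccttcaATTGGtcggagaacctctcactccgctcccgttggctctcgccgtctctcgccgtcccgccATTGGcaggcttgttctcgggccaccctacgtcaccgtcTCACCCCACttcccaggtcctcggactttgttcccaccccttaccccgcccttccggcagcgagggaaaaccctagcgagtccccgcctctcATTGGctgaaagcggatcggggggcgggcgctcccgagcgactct
Idi1 (chr13:8885356-8885605, plus strand): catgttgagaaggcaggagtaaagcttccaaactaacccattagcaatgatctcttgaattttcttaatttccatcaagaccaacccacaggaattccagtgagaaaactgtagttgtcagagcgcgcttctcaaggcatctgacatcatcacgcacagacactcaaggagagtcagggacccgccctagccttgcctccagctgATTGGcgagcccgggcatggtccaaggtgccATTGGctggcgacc
Fasn (chr11:120824548-120824797, minus strand): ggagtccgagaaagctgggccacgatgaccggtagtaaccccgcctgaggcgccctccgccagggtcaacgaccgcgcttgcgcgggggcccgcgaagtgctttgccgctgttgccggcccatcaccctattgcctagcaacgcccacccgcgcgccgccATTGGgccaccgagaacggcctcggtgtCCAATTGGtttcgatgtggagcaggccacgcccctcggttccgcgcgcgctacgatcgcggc

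The Hmgcs1 promoter held the sterol element starting 137 bases before the start, with CCAAT boxes at 237, 176 and 45 bases, and the Idi1 promoter held CCAAT boxes at 45 and 14 bases. The Fasn promoter held 3 CCAAT boxes, of which those at 62 and 59 bases overlap each other on opposite strands. Of the 7 promoters that matched (Scd1 had none in the table), 4 held a CCAAT box, against 33.8% of all 32851 promoters of this length, and 1 held the sterol element, against 1.05%. The E-box CACGTG (6.02% of all promoters) and the PPAR element DR1, a pair of AGGTCA with 1 base between them (0.0335%), were in none of the 7, and the hypoxia element core ACGTG (16.6%) was in Acly alone, at 71 bases. An exact DR1 is so rare that its absence from 7 promoters says nothing about these genes. All motifs were searched on both strands, the hypoxia core lies inside the E-box sequence, and a match describes the letters only. The gene with the sterol element, Hmgcs1, was among those that fell.

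The genes of both SREBP factors rose, while other regulators of the synthesis routes were split. Srebf1, which encodes SREBP1, stood at 118 CPM in tumour area L4, 83.2 in R2, 86.4 in R3, 84.4 in R4 and 100.1 in R5, against 35.7 to 38.1 CPM in normal areas. All tumour areas were more than 2 times as high as any normal area (1.36 ± 0.11, adjusted p = 1.76e-06, and 1.21 without L4 and R5). Srebf2 averaged 299 ± 17.1 CPM in tumour areas and 227 ± 2.13 CPM in normal areas (0.40 ± 0.05), and Scap, which escorts SREBP, rose by 0.17 ± 0.05. Insig1, which holds SREBP back and is also its target, averaged 173 ± 29.7 CPM in tumour areas and 102 ± 2.03 CPM in normal areas (0.76 ± 0.12). In the same list of control genes Mbtps1 rose (0.35 ± 0.05) and Mbtps2 fell (-0.66 ± 0.07, adjusted p = 1.08e-05). Both were named after their values were seen.

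Of 25 tested SREBP, LXR and AMPK genes, from 36 listed and 31 in the table, 11 rose and 9 fell, with a median of 0.14. The shares over all genes were near these, at 39.3% higher and 35.3% lower, with a median of 0.06. Under library size scaling 15 rose and 8 fell. Abca1 and Abcg1, sterol exporters that the LXR receptors switch on and that macrophages hold in quantity, rose by 2.32 ± 0.08 and 1.21 ± 0.20. Abca1 averaged 267 ± 29.3 CPM in tumour areas and 53.5 ± 1.08 CPM in normal areas (adjusted p = 2.41e-08). Prkaa2 and Prkaa1, the catalytic subunits of AMPK, a kinase that shuts off ACACA, fell, with log2 fold changes of -1.62 ± 0.15 and -0.51 ± 0.04. Of its other subunits, Prkab2, Prkab1 and Prkag1, named after their values were seen, rose, with log2 fold changes of 1.17 ± 0.19, 0.36 ± 0.06 and 0.19 ± 0.06. Nr1h4, the bile acid receptor FXR, fell by 1.56 ± 0.20, and Usp20, a deubiquitinase, by 1.33 ± 0.13. Mlxipl, the sugar-sensing factor ChREBP, was not called (-0.08, 95% interval -0.42 to 0.27), and its sign turned with the scaling and without R5. Nr1h3, the LXR of macrophages, was listed at 0.

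Genes of lipid uptake were split as well. Of 21 tested, from 36 listed and 32 in the table, 6 rose and 10 fell, with a median of -0.27. The shares over all genes were 39.3% higher and 35.3% lower, and the median was 0.06. Under library size scaling 9 rose and 7 fell, and without L4 and R5 7 rose and 11 fell, with a median of -0.18. Msr1, the scavenger receptor of macrophages, rose by 3.63 ± 0.25, and Lipg, the endothelial lipase, by 2.02 ± 0.21. Lipc, the hepatic lipase, had 177 counts over the tumour areas and none over the normal areas, so that, with 3 counts over all normal areas taken as the limit, it was at least 41.0-fold higher. Lrp2 and Cubn, the receptors by which the proximal tubule takes up filtered lipid carriers, fell, with log2 fold changes of -1.12 ± 0.20 and -0.88 ± 0.19, and both belong to the proximal tubule markers above.

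Set per kilobase of exon (lengths from the later annotation), the order of the 8 levels differed between the groups. In tumour areas Scd1 came first at 903 CPM per kb, followed by Hmgcs1 at 330.3, Fasn at 24.1, Plin2 at 5.56, Idi1 at 4.10, Ppara at 3.63, Acly at 2.42 and Acaca at 0.184. In normal areas Hmgcs1 came first at 622 CPM per kb, followed by Scd1 at 227.5, Ppara at 24.5, Idi1 at 14.2, Fasn at 9.36, Plin2 at 8.84, Acly at 5.54 and Acaca at 0.342. Scd1 and Hmgcs1 thus held opposite places at the top, and Ppara was the sixth in tumour areas and the third in normal areas. The neighbours Plin2, Idi1 and Ppara in tumour areas, and Fasn and Plin2 in normal areas, had ranges that overlapped (in normal areas 9.15 to 9.68 for Fasn and 7.84 to 9.63 for Plin2), so their order is not fixed. Among 14026 genes ranked this way, Scd1 stood at place 5 in L4, 23 to 37 in the other tumour areas and 158 to 253 in normal areas, and Hmgcs1 at 82 to 138 in tumour areas and 45 to 48 in normal areas. Such levels assume that reads over the whole gene were counted.

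The gene whose profile was nearest to each of the 8 was sought by the root mean square difference, over the 9 areas, of log2 CPM relative to the normal mean. For Ppara these were Slc9a3, the sodium-proton exchanger of the proximal tubule (0.137), and Arhgef12, a guanine nucleotide exchange factor (0.157). For Scd1 they were C4b, complement component 4 (0.216), and Esyt1, an extended synaptotagmin (0.257), and for Fasn Smpd3, a neutral sphingomyelinase (0.173), and Bace2, a protease (0.241). The nearest to Idi1 were Pappa (0.158) and Slc7a13, an amino acid carrier of the proximal tubule (0.16), and to Hmgcs1 Zswim5 (0.0348) and Sestd1 (0.0479). For Acly they were Ate1 and Fam91a1 (0.0934 each), for Plin2 Abca9 (0.112) and Ptpn14 (0.122), and for Acaca Gprc5b (0.16) and Pi15 (0.227). The comparison covered 6923 genes over 9 areas that fall into 2 groups, so many genes with a like fold change lie close.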

How the data were processed

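RNA was sequenced from 5 tumour and 4 normal areas of mouse renal cortex. Per the labels, poly(A) RNA was made into TruSeq libraries, which do not mark strand, and read as paired ends. The deposited table holds raw counts of reads per gene, checked to be whole numbers, and STAR 2.3, HTSeq, edgeR and mm9 stand in the submitters' processing notes. For the annotation and the counting settings, no source used here gives them. Of 14052 genes, 14026 matched a symbol. Counted reads ran from 5143527 to 8250261 per library, and a 0 allows up to 3 counts, or 0.409 to 0.649 CPM (counting error only).

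Genes were kept by filterByExpr (minimum count 10, minimum total 15), which left 7020, scaled by TMM (tumour factors between 1.04 and 1.17, normal factors between 0.8895 and 0.8993) and tested 2-sided with edgeR 4.0.16 in R 4.3.3, with the group as the only term. The common biological coefficient of variation was 0.152. Alternatives were other scalings, other filters, DESeq2 1.42.0, limma-voom (limma 3.58.1), the area letter as a covariate, areas lettered R only, L4 and R5 left out, and each area left out. The members, the gene lists and these choices were made with earlier results of these data known, so lists are given by counts and medians only.

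Named genes are the 8, up to 3 called genes per list and direction with the largest change whose higher group averaged 5 CPM or more, a fixed set of control genes, and the 2 genes most like each of the 8. Of the fixed control genes, Ppard and Hilpda were not analysed here, and some named by the rule are not reported here. The other genes named were chosen after their values were seen: Vhl, Pbrm1, Cfd, Ucp1, Med1, Lss, Dhcr7, Trem2, Elovl6, Cyb5r3, Lipe, Prkab1, Prkab2 and Prkag1. So were Acadm, Acadl, Hsd17b4, Eci1, Etfa, Acaa2, Hadh, Ncor1, Mbtps1 and Mbtps2. Exon lengths and shared 50-base stretches come from GENCODE M21 (GRCm38), which is later than mm9, and promoters from RefSeq GRCm38.p6. The edgeR fit was run on counts simulated from the normal areas. It called 60.9% of genes changed 1.5-fold, 87.3% of those changed 2-fold and 100% of those changed 4-fold. Only 64, 63 and 61 of 6571 genes were so changed, so that run did not test the scaling when most genes change. Plots used Python 3.11.15 and matplotlib 3.10.9.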

Additional observations from a re-analysis of the deposited data

Results flagged for a closer look

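Among 63 genes in both groups, 126 sets of areas were looked at, and 10 held an area far from the others of its group. Chance alone gives about 1 in 20. In 7 of the 10 the area was tumour L4, the one richest in fat cell and urothelium markers, whose part in these values was not tested.

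Fasn stood at 639.8 CPM in tumour L4, while the other 4 tumour areas held 133.6 to 245.6 CPM. Acaca reached 6.542 CPM in L4, while the other 4 held 1.743 to 3.044 CPM. Pparg, the PPAR of fat cells, was at 26.87 CPM in L4, the others at 4.176 to 9.587 CPM. Abcd2, a peroxisomal transporter, was at 74.06 CPM in L4, the others at 4.902 to 22.37 CPM. G6pdx, which supplies NADPH, was at 178.9 CPM in L4, the others at 116.5 to 130.4 CPM. The fat cell droplet coats Plin1 and Plin4 were at 139.3 and 145.9 CPM in L4, with 0.3356 to 30.74 and 5.202 to 34.85 CPM in the others.

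Tumour area R2 was low for the SREBP inhibitor Insig1, at 120.3 CPM with the other tumour areas at 180.6 to 190.8 CPM, and for Rxra, at 286.1 CPM against 329.6 to 342.7 CPM. Normal area L1 was low for Ucp2, at 92.82 CPM against 105.8 to 108.3 CPM in the other normal areas.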

How the results depend on the processing

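All 8 genes kept their direction under all 19 alternatives, and Ppara, Scd1, Fasn, Acly, Idi1 and Hmgcs1 kept their call. Plin2 lost it with library size alone (-0.37, adjusted p = 0.0684). Acaca lost it with upper quartile factors (-0.80, adjusted p = 0.0573) and library size alone (-0.56, adjusted p = 0.197). It also lost the call when any single area other than L4 was left out (adjusted p up to 0.0915). In all, Acaca lost its call in 10 of 19 alternatives, and it ranged from -1.32 to -0.70 with single areas left out. Fasn ranged from 0.51 to 1.69 over all alternatives. Tested PPARA targets called higher (2 of 29) numbered 3 with upper quartile factors, 5 with library size alone, 1 with limma-voom, with areas lettered R and without L4 and R5, and 1 to 3 with single areas left out. Fatty acid synthesis genes called higher and lower (6 and 13) numbered 10 and 7 with library size alone. Log2 fold changes that turned sign were those of Scd2 (0.04 with upper quartile factors, 0.27 with library size alone, -0.05 to 0.01 with single areas left out), Mlxipl (0.21 with library size alone, 0.00 with areas lettered R, 0.08 without L4 and R5, -0.19 to 0.01 with single areas left out), Plin1 (-1.25 without L4 and R5) and Plin4 (-0.14 with areas lettered R, -1.14 without L4 and R5, -0.20 to 1.59 with single areas left out, the lowest without L4). Apart from the alternative's own construction, the cause was not tested. Of 1045 comparisons for 55 other named genes, 1008 kept direction and call. No paired analysis was possible because tumour and normal areas come from mice of different genotype. The 1 area name that the groups share, R2, does not make a pair. Acaca had the lowest counts of the 8 genes, 12 to 47 in tumour areas, and the level of Creb3l3 in tumour areas rests on fewer still, 2 to 9.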
